A study of Mus musculus with 8 samples.

Results

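The peaks described are those of the first Mgea5 ChIP-seq repeat that overlapped a peak of the second repeat by 1 bp or more on chromosomes 1 to 19. They number 185621 of the 529967 repeat 1 peaks on these chromosomes, which is 35% (the background share of shared calls), and 1719263 peaks make up all 6 peak lists of the series. Seen from the second repeat, 191737 of 516979 peaks (37.1%) overlapped the first. The series holds 8 libraries of primary hippocampal neural progenitor cells, taken from male mice of the C57BL/6 strain with no treatment of the cells named in the labels: a pair each for Mgea5, Panx2 and Polr1c, and a pair of input chromatin. Age is not stated in the labels, and nothing there says that the repeats came from separate cultures or animals, so differences between the 2 Mgea5 libraries may be technical. The lists give no read depth, so precision can be judged only from how far the 2 repeats differ.

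Mgea5 is the older name of OGA, the hydrolase that removes O-linked N-acetylglucosamine (O-GlcNAc) from serines and threonines of nuclear and cytoplasmic proteins. Its counterpart, the transferase OGT, adds the sugar, and the donor UDP-GlcNAc is made by the hexosamine pathway from glucose, glutamine and other metabolites. Many transcription factors, RNA polymerase II and chromatin regulators carry O-GlcNAc, and OGA itself has no known DNA-binding domain. A ChIP peak of OGA therefore marks chromatin crosslinked to the enzyme directly or through other proteins.

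The promoters of the genes with the highest shared peaks at a listed start are shown first, since these are among the sites of largest value in both repeats. Supt7l also has a listed start, at the same peak as Slc4a1ap, and is not shown. Each line gives the 250 bases before the listed RefSeq start (GRCm38.p6, the coordinates of mm10), 5′ to 3′ on the strand of the gene. Capitals mark matches to any of 10 short motifs searched on both strands. B4galt7 lies at chr13:55599646-55599895 on the plus strand, and Kmt2a at chr9:44881290-44881539 on the minus strand. Rgl2 lies at chr17:33929644-33929893 on the plus strand, and 0610012G03Rik at chr16:31948506-31948755 on the minus strand. Slc4a1ap lies at chr5:31526745-31526994 on the plus strand, and Atg14 at chr14:47568435-47568684 on the minus strand. A listed start can lie inside the annotated gene. The Rgl2 window therefore lies wholly within its gene, and the Slc4a1ap and Kmt2a windows lie partly within theirs.
B4galt7: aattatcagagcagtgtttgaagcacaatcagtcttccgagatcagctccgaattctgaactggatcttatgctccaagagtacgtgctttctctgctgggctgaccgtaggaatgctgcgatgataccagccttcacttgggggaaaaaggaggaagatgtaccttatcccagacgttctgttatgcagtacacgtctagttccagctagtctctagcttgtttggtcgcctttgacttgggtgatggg
Kmt2a: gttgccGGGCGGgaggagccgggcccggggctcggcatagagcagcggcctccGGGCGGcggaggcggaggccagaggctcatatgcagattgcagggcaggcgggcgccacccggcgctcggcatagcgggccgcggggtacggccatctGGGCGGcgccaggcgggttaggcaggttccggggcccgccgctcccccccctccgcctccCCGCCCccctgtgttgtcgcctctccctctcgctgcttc
Rgl2: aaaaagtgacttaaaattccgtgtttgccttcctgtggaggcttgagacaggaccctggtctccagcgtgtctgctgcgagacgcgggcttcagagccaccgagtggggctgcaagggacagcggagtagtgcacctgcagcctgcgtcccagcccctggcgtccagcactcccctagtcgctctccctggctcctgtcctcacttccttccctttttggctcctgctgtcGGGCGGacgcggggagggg
0610012G03Rik: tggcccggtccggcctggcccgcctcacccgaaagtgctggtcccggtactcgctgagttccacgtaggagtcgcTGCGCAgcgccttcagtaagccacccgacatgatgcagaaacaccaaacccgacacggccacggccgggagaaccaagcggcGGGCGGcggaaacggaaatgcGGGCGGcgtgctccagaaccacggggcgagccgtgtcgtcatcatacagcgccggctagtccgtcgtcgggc
Slc4a1ap: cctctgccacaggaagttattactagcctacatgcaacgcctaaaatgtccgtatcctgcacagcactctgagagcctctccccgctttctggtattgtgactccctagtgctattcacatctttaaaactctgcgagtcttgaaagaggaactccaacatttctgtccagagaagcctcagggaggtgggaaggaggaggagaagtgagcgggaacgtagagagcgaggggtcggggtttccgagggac
Atg14: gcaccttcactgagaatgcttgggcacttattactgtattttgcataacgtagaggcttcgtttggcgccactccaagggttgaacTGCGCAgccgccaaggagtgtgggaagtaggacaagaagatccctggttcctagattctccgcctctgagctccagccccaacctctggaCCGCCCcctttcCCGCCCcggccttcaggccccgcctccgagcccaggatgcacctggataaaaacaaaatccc
The 6 promoters did not share one composition. B4galt7 held 8 CpG dinucleotides and Slc4a1ap 9, with no motif match in either, whereas Kmt2a held 29 CpG and 4 GC boxes (GGGCGG, the Sp family site) and 0610012G03Rik 32 CpG. Atg14 and 0610012G03Rik each had 2 GC boxes and 1 NRF1 core (TGCGCA), and Rgl2 had 1 GC box. In these capitals CCGCCC is the GC box on the other strand, and no match says only that these letters are missing from this window.

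The genes described next had the shared peaks of highest fold enrichment at a protein-coding start. The fold enrichment is the authors' value for each peak, a ratio of ChIP to background signal that is comparable only within a list, and genes were ranked by the geometric mean of the folds in both repeats. The peak at B4galt7, which makes the galactosyltransferase that adds the first galactose of the proteoglycan linker, spanned chr13:55598505-55600473, from position −1391 to position 577 relative to the start. Its fold was 5.08 in repeat 1 and 4.22 in repeat 2, the highest value of each list on these chromosomes. At Kmt2a, the gene of a histone H3 lysine 4 methyltransferase, a 2400 bp peak (chr9:44880313-44882712) had folds of 4.37 and 4.18. At an end of Cpsf1, which encodes a subunit of the cleavage and polyadenylation factor, the folds were 4.43 and 3.24 over 1081 bp (chr15:76607155-76608235). The peak at Rgl2, a gene of a Ral exchange factor, also touched its neighbour Tapbp and had folds of 3.40 and 3.97 (chr17:33929097-33930673).

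Several of these peaks sat where 2 genes meet. An 841 bp peak (chr16:31947904-31948744) spanned the gap between 0610012G03Rik and Ncbp2, the gene of the small nuclear cap-binding subunit, with folds of 4.37 and 3.04. A 1262 bp peak (chr5:31526615-31527876) lay at both Slc4a1ap and Supt7l, the latter a gene of the SAGA coactivator complex, with 3.64 and 3.58. Among single genes, the autophagy gene Atg14 had 3.50 and 3.62 (chr14:47567704-47568849). The proteasome subunit gene Psmb7 had 3.42 and 3.19 (chr2:38643171-38644063). Fbxw8, which encodes a substrate receptor of a cullin ubiquitin ligase, had 3.57 and 2.88 (chr5:118154869-118155639), and the protein kinase gene Mapkapk5 had 2.91 and 3.50 (chr5:121545841-121546554). All of these 12 genes except Fbxw8 and Mapkapk5 had a fold of 3 or more in both lists.

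A q of at most 0.01 in both repeats was reached by 65 of the 185621 shared peaks. At that q, all 106 repeat 1 peaks and 105 of the 106 repeat 2 peaks overlapped some peak of the other list. The 65 were found on each of the 19 chromosomes, and 38 of them lay within 1 kb of a protein-coding start, with the start itself inside the peak in 37. Their median width was 1182 bp at starts and 529 bp elsewhere. At starts the folds ran from 2.38 to 5.08 in repeat 1 (median 2.97) and from 2.22 to 4.22 in repeat 2 (median 2.84). Away from starts they ran from 1.78 to 3.58 (median 2.13) and from 1.61 to 2.53 (median 1.83), so the groups overlap in both lists.

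**Figure D1:**
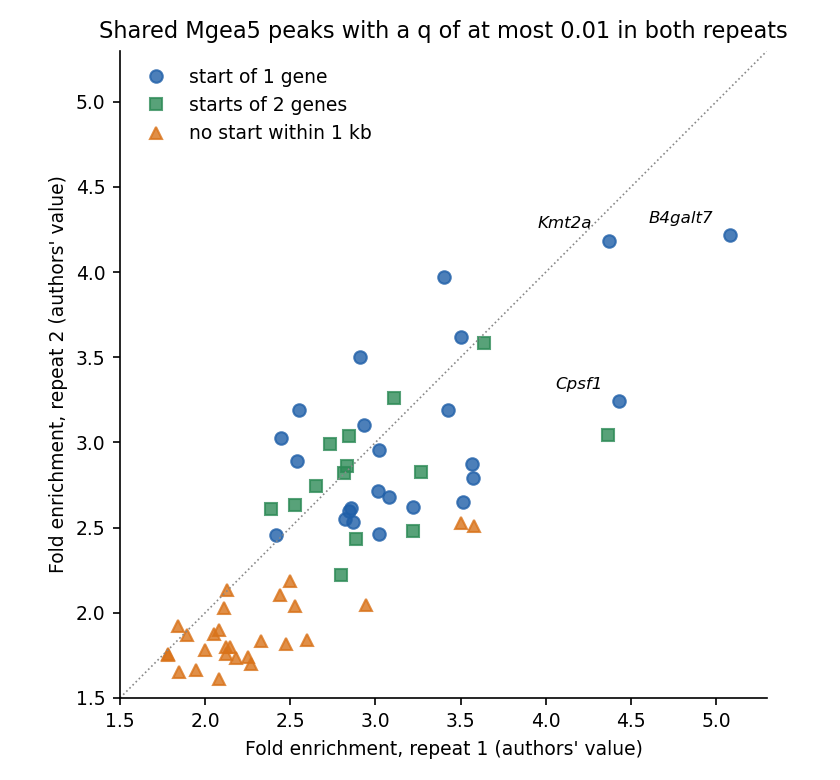
Fold enrichment in repeat 1 (horizontal) against repeat 2 (vertical), the authors' values, of the 65 shared Mgea5 peaks with a q of at most 0.01 in both repeats. Circles lie at the start of 1 gene, squares at the starts of 2 genes and triangles have no protein-coding start within 1 kb; the dotted line marks equal folds, and triangles reach 2.53 on the vertical axis while circles and squares reach 4.22.

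Of these 38 peaks, 14 (36.8%) lay within 1 kb of the starts of 2 genes, and none lay near 3 or more. Among all 8957 shared peaks at a start, 743 (8.30%) were near 2 or more genes. The peaks at starts and away from them also differed in what else was called there. Of the 38 at starts, 29 overlapped a peak of Panx2 repeat 2, 6 one of Polr1c repeat 2, and 7 no peak of either other protein. Of the 27 away from starts, 25 overlapped Panx2 repeat 2 and 24 overlapped Polr1c repeat 2. Over all shared peaks these overlaps were 47.6% and 4.94%, and over those of 1000 bp and over 66.6% and 8.69%. Panx2 repeat 1 overlapped 3 of the 38 and 12 of the 27, and Polr1c repeat 1 overlapped 2 and 9. Several of the 27 lay close together in chr2:98662175-98667369 and overlapped the second lists of both proteins, so the 27 are not all separate places. All 4 lists of the other proteins had a peak at 9 of the 27 and at 0 of the 38. Within 200 kb of the first or last peak of a chromosome lay 9 of the 27 and 0 of the 38. Whether the input libraries, which may serve as a common control, have a part in this was not tested.

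Of the 8 widest shared peaks, 7 had no protein-coding start within 1 kb. That is usual, since only 4.83% of all shared peaks and 7.76% of those of 1000 bp and over had one. The first, chr9:3000006-3038301, measured 38296 bp in repeat 1 and 38288 bp in repeat 2, had folds of 2.12 and 1.80, had no gene in it and overlapped peaks in all 4 lists of Panx2 and Polr1c. The next 7 measured 7774 to 10269 bp. They touched Zfp978, a zinc finger gene, at chr4:147240604-147250872 (10269 bp) and again at chr4:147265124-147274645 (9522 bp, with the pseudogene Gm13158), Ahnak2 at chr12:112775815-112784713 (8899 bp) and the vomeronasal receptor pseudogene Vmn2r-ps16 at chr4:146479109-146487519 (8411 bp). The others lay over Zfp384, the lncRNA 4930557K07Rik and the start of Ing4, a gene of histone acetyltransferase complexes, at chr6:125034763-125042641 (7879 bp), in Elovl6, a fatty acid elongase gene, at chr3:129550017-129557824 (7808 bp), and in Tmem267 at chr13:119595666-119603439 (7774 bp). Among these 7, the highest-fold repeat 2 partner was 7127 bp wide for Tmem267 and 5659 bp for the second Zfp978 peak. For the other 5 it was 219 to 900 bp wide, so it covered a small part of the repeat 1 peak.

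Away from genes, with none within 10 kb, the highest shared peak lay at chr4:67208511-67209026, 362 kb from the nearest protein-coding start, with folds of 3.39 and 4.20. The next were at chr17:82988860-82989042 (3.54 and 2.33) and chr11:35731910-35732365 (2.63 and 2.32). All 3 overlapped a Panx2 repeat 2 peak, and the first and second also a Polr1c repeat 2 peak. The −log10 q of the chromosome 11 peak was only 0.063 in repeat 1 and 0.00074 in repeat 2.

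Most shared peaks were far weaker than those named so far. The median fold was 1.72 for shared and 1.71 for unshared peaks of repeat 1, and 1.71 for both kinds in repeat 2, so the height of a peak hardly set the classes apart. The deposited −log10 q was exactly 0 for 95.9% of the shared and 98.2% of the unshared peaks of repeat 1. In repeat 1, the share found in both repeats was 33.4% below a fold of 1.75 and 40.8% from 2.5 to 3, and it reached 78.7% (48 of 61) at a fold of 3 or more. In repeat 2 the same 3 shares were 37.0%, 38.9% and 81.5% (22 of 27). Among the 5 fold classes compared, most peaks overlapped the other list only in this highest one, in both repeats.

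Within a shared pair, the height in one repeat told little of the height in the other. Over the 185621 shared peaks, Spearman's rho of the folds was 0.06 and that of the widths −0.02, given as descriptions across peaks, which share libraries and are not replicates. Of the shared peaks in the top 10% of folds of repeat 1, 11.4% had a partner in the top 10% of repeat 2, against 9.56% of the others. At start sites the folds were more alike, with a rho of 0.19 over 8957 peaks. There, 25.2% of the top 10% of repeat 1 had a partner in the top 10% of repeat 2, against 7.96% of the others. Away from starts these shares were 10.4% and 9.64%.

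Shared peaks were wider than peaks of 1 repeat only, in both lists. The median width was 688 bp (quartiles 401 and 1153) for shared and 455 bp (quartiles 244 and 708) for unshared peaks of repeat 1. In repeat 2 it was 535 bp against 381 bp. The difference of 233 bp and 154 bp gives a mean of 194 ± 55.9 bp (SD, n = 2), with no test, since the peaks of a library are not replicates of a condition. The 2 values are the 2 directions of one overlap. Here and below, such an SD is therefore not a spread between independent measurements. Peaks of 3000 bp or more made up 1.44% of the shared and 0.125% of the unshared peaks in repeat 1, and 0.380% and 0.0157% in repeat 2.

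**Figure D2:**
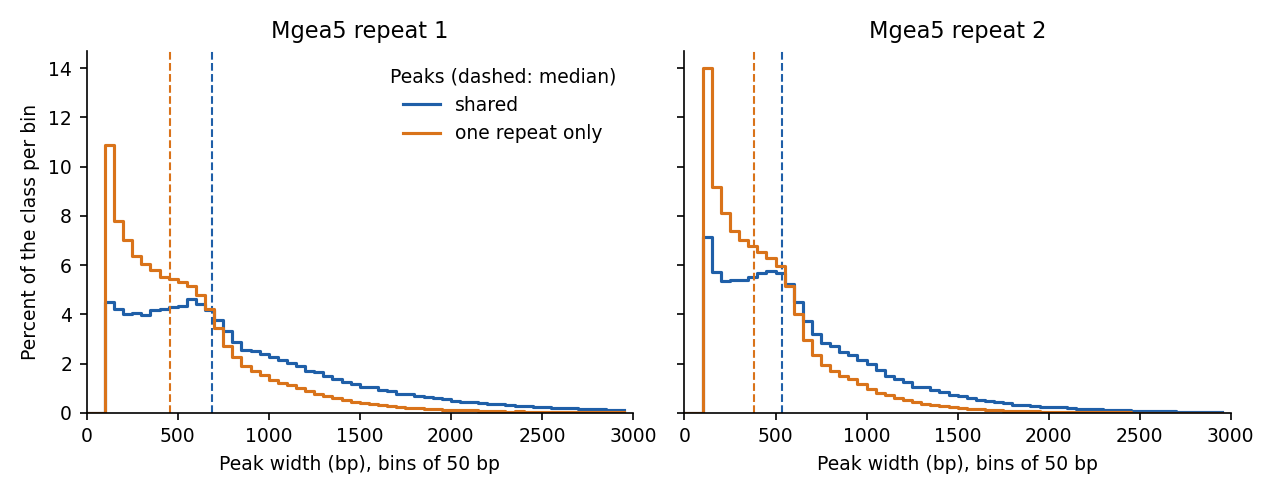
Percent of peaks per 50 bp bin of peak width (bp) for shared Mgea5 peaks and peaks of 1 repeat only, in repeat 1 (left) and repeat 2 (right), up to 3000 bp; dashed lines are the medians. The shared medians, 688 and 535 bp, lie to the right of the unshared ones, 455 and 381 bp.

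A wide peak meets a 1 bp rule more readily, and the share found in both repeats followed the width closely. In repeat 1 it was 22.0% for peaks under 300 bp, 29.3% from 300 to under 600 bp, 38.4% from 600 to under 1000 bp and 58.4% at 1000 bp and over. In repeat 2 the same 4 classes gave 26.4%, 34.2%, 45.4% and 63.1%. The pairs themselves overlapped in part: the median overlap was 246 bp (quartiles 135 and 441), and in 40.2% of the 196830 pairs the narrower peak lay wholly inside the wider. A mutual overlap of 50% or more was met by 21.0% of pairs. Most shared peaks, 94.3%, had a single partner, and the largest number was 5. Just inside the rule, 2162 shared peaks (1.16%) overlapped their partner by under 10 bp. Just outside it, 20921 unshared peaks of repeat 1 (6.08%) ended within 100 bp of a repeat 2 peak.

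Shared peaks lay in and near genes more often than peaks of 1 repeat only. The middle base fell in a protein-coding gene for 52.4% of shared and 45.4% of unshared peaks of repeat 1, and for 52.5% and 44.7% in repeat 2. Protein-coding genes cover 40.9% of the span of these chromosomes. The median distance to the nearest protein-coding start was 36.8 kb for shared and 48.8 kb for unshared peaks of repeat 1, and 36.5 kb and 51.0 kb in repeat 2. No gene of any kind lay within 10 kb of 23.1% and 29.6% in repeat 1. Over the bodies of protein-coding genes, shared peaks numbered 12.8 per 100 kb in genes under 10 kb, 11.9 in genes of 10 to 50 kb, 11.1 in genes of 50 to 200 kb and 8.11 in genes of 200 kb and over, against 7.72 over the whole span. The share of repeat 1 peaks found in both repeats was 38.6%, 40.6%, 39.9% and 35.7% in the same 4 length classes.

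Start sites held a small part of the shared peaks. Within 1 kb of a protein-coding start lay 8957 (4.83%) of the shared and 3.41% of the unshared peaks of repeat 1. In repeat 2 these were 8590 (4.48%) and 2.13%. The difference was 1.42 percentage points in repeat 1 and 2.35 in repeat 2 (mean 1.88 ± 0.656, SD, n = 2). Compared within the 4 width classes and weighted by the shared peaks, it was 0.538 in repeat 1 and 2.17 in repeat 2, an alternative chosen after seeing the data. At equal width the excess was thus smaller in repeat 1 and nearly as large in repeat 2.

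The difference was much larger among peaks of lower p. With a −log10 p of at least 1.5 in both lists, 8.39% of 23079 shared peaks and 4.80% of the repeat 1 peaks not shared at that level lay at a start. At a −log10 p of at least 2, which 842 shared peaks met, the shares were 48.1% (405 peaks) and 6.88%. At 2.5 they were 70.5% of 342 peaks and 11.6%, and at 3 they were 69.3% of 228 peaks and 24.6%. In repeat 2 the shares at a −log10 p of at least 2 were 46.9% and 3.10%. Only 3.95% of the 21310 repeat 1 peaks at this level overlapped a repeat 2 peak of the same level. The difference did not keep growing with strictness. With a −log10 q of at least 2 in both lists it was 4.80 percentage points, between 65 shared and 41 unshared peaks of repeat 1.

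**Figure D3:**
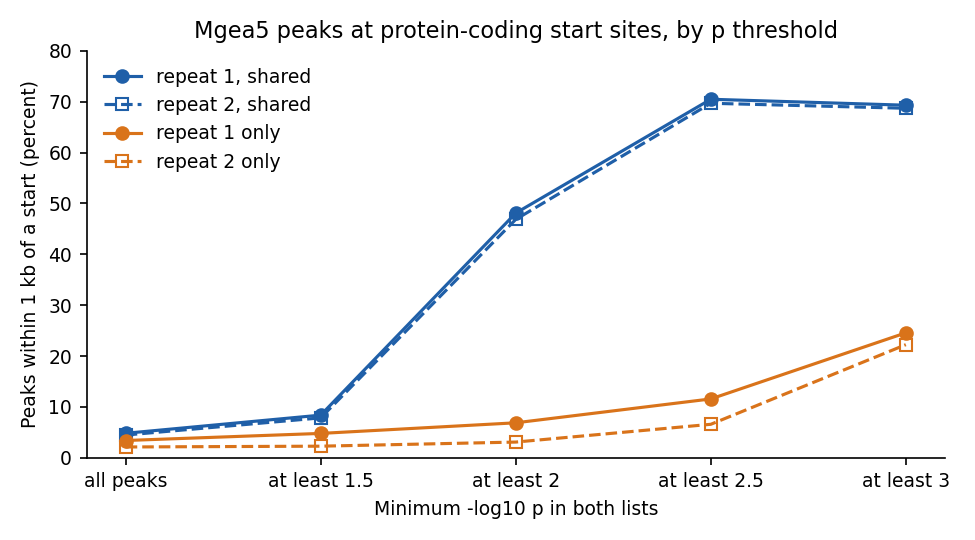
Percent of Mgea5 peaks within 1 kb of a protein-coding start (vertical) among all peaks and among peaks with a −log10 p of at least 1.5, 2, 2.5 and 3 in both lists (horizontal). Filled circles are repeat 1 and open squares repeat 2, blue for peaks shared at that level and orange for the rest; the shared curves go from 4.83% and 4.48% to 69.3% and 68.7%.

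The shape of the signal around starts differed between the repeats. Among 20085 listed starts, repeat 1 peaks covered 35.3% at the start base and 38.1% at 200 bp after it, against a mean of 17.4% at 4 to 5 kb on either side. Repeat 2 peaks covered 14.6% at the start, 12.4% at 500 bp before it, 14.7% at 1500 bp after it and 12.6% at 4 to 5 kb. The extents of shared peaks, taken from repeat 1, covered 19.3% at the start and 8.07% at 4 to 5 kb. Bases under a peak of both repeats at once made up 8.59% at the start and 3.06% at 4 to 5 kb. Repeat 1 thus had a single broad maximum over the start, and repeat 2 a narrow one between lower flanks, close in height to shoulders further out (14.5% at 1300 bp before the start).

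**Figure D4:**
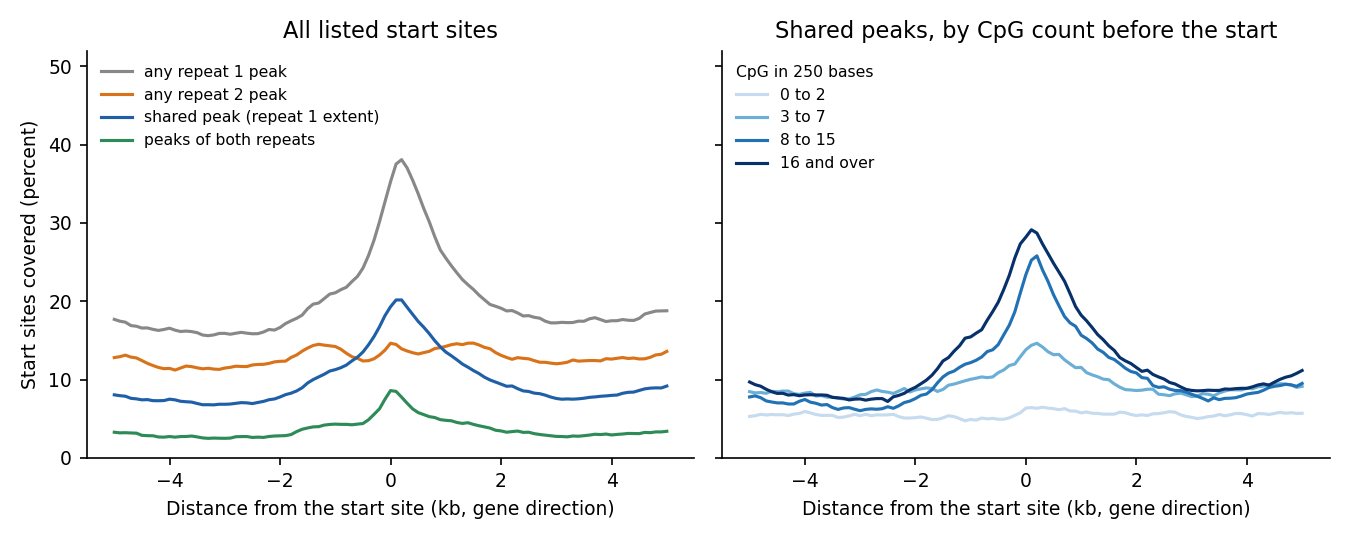
Percent of 20085 listed protein-coding starts covered by Mgea5 peaks (vertical) at distances from 5 kb before to 5 kb after the start in the direction of the gene (horizontal). The left panel shows any repeat 1 peak, any repeat 2 peak, shared peaks and bases under both, at 35.3%, 14.6%, 19.3% and 8.59% at the start; the right panel shows shared peaks by the number of CpG in the 250 bases before the start, from 6.35% (0 to 2 CpG) to 28.2% (16 and over).

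CpG-rich promoters carried shared peaks more often. A shared peak lay within 1 kb of 16.6% of the starts with 0 to 2 CpG in the 250 bases before them, 32.0% of those with 3 to 7, 42.0% of those with 8 to 15 and 47.1% of those with 16 or more. Repeat 1 peaks alone followed the same order, from 44.6% to 87.3%, and repeat 2 peaks went from 38.4% to 57.8%. The median was 14 CpG and 59.2% GC at starts with a shared peak, and 2 CpG and 46.8% GC at the 3381 starts with no peak in either list. Starts with a repeat 1 peak only had a median of 12 CpG, and those with a repeat 2 peak only had 4. GC content can also bear on library recovery, and its part in these shares was not tested.

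Of the 10 motifs, the ETS site CCGGAAG had the largest ratio between windows with and without a shared peak. It was present in 13.4% of the 7247 promoter windows with a shared peak, in 6.84% of the 12838 without and in 9.21% of all 20085. At equal CpG the gap was smaller but kept its direction: 15.0% against 9.31% at 8 to 15 CpG, and 19.1% against 13.7% at 16 and over. Of the 46 listed starts near a shared peak with a q of at most 0.01 in both repeats, 13 (28.3%) had the ETS letters. In the same 46 the GC box was in 50%, the CCAAT box in 19.6% and the NRF1 core in 15.2%. Over all starts these were in 43.4%, 35.3% and 8.12%. Each remaining motif was in 4 or fewer of the 46. Some of the 46 starts lie at the same peak, and they were not compared at equal CpG. The GC box GGGCGG was in 52.4% of windows with a shared peak and 38.3% of those without, but within the 2 CpG-rich classes the order turned, with 49.8% against 53.7% and 76.4% against 78.9%. The TATA box TATAAA was in 8.14% and 13.7%, and the CCAAT box in 33.2% and 36.4%. The E-box CACGTG (8.14% and 5.87%), the CRE core TGACGT (9.26% and 6.44%), the NRF1 core (9.25% and 7.48%), TCGCGA (3.56% and 2.27%), the YY1 site ATGGCGG (3.15% and 2.26%) and the ZNF143 core ACTACAA (2.77% and 3.61%) completed the set. At equal CpG several of these orders also turned. The TATA box was in 8.80% against 6.56% at 8 to 15 CpG and 2.85% against 3.13% at 16 and over. The NRF1 core was in 8.41% against 10.1% and 13.9% against 16.6%, the YY1 site in 2.69% against 2.70% and 4.83% against 5.11%, and TCGCGA in 1.76% against 2.03% and 6.60% against 6.23%. These are matches of letters on either strand and not measured sites.

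By gene, 8337 of 20665 protein-coding genes (40.3%) had a shared peak within 1 kb of the start. Only the repeat 1 extent had to reach this window, so the overlapping repeat 2 peak need not itself come within 1 kb. This holds for the gene lists below too. Called by the extents of the shared repeat 2 peaks instead, the count was 7811 genes. Any repeat 1 peak lay within 1 kb of the start for 75.9% of genes (15689) and any repeat 2 peak for 58.5% (12095). For the 4208 genes without a listed start both ends were taken, and 50.7% of these had a shared peak, against 37.7% of the 16457 with one. The median of the mean folds at the 8337 genes was 1.73. At 285 of them both folds were 2 or more, and at 52 the q was at most 0.01 in both repeats. The gene lists below are given beside the 40.3% and have no test of their own. Some genes named above or in these lists have no listed start, so their peak may lie at either gene end. These are Cpsf1, Ncbp2, Psmb7, Fbxw8, Gnpda1, Hdac1, Ash1l, Ash2l, Wdr33, Xylt1 and Arc. The same holds for Hoxc9, Hoxc10, Vmn1r2, Sox9, Msi1, Snap25, Tmem119, Csf1r, Cdh5, Sox10 and Olig1.

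Genes of O-GlcNAc cycling and the hexosamine pathway had a shared peak at 5 of 13 (38.5%), a count too small to be read against that of all genes. Oga itself, the gene of the profiled enzyme, had a 951 bp shared peak with folds of 1.80 and 1.50 (chr19:45782426-45783376). Amdhd2, a deacetylase of N-acetylglucosamine 6-phosphate, had 1.77 and 2.03. Gfpt1, which encodes the enzyme of the first step of the hexosamine pathway, had a 3589 bp peak with 1.79 and 1.49, and Gnpda1, a glucosamine 6-phosphate deaminase gene, had 1.63 and 1.63. At Oga, Gfpt1 and Gnpda1 the deposited −log10 q was 0 in both repeats, so by q these are not called sites. Without a shared peak were Gfpt2, Eogt, Gnpnat1, Pgm3, Uap1, Uap1l1, Nagk and Gnpda2. Of these, Uap1, the gene of the enzyme that makes UDP-GlcNAc, had peaks of both repeats in the window that did not overlap, and Gfpt2 had none. Ogt and Renbp are not on chromosomes 1 to 19.

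In the chromatin lists the share of genes with a shared peak was above that of all genes. These lists are short (14 to 23 genes), so this is not read as a result about chromatin genes. The share was also higher for all genes taken at either end (50.7%) and for starts with 16 or more CpG (47.1%). Whether CpG or missing starts have a part in the shares of these lists was not tested. Of the genes of proteins known to work with or be modified by OGT in chromatin, 9 of 15 had a shared peak, highest at the zinc finger factor gene Yy1 (1.98 and 2.32), the methylcytosine dioxygenase gene Tet2 (1.91 and 1.82) and the deacetylase gene Hdac1 (1.79 and 1.89). Genes of H3K4 methyltransferase complexes had 9 of 14 (64.3%), with Kmt2a first, then Ash1l (1.69 and 1.97) and Ash2l (1.68 and 1.65). Hdac1, Ash1l and Ash2l have no listed start, so their peaks were called at either gene end. Apart from Kmt2a, the called genes of that list had folds of 1.56 to 1.81 in repeat 1 and 1.50 to 1.97 in repeat 2. Polycomb genes had 14 of 23 (60.9%), highest at Pcgf6 (2.20 and 1.77), Ezh1 (1.91 and 1.89) and Phc3 (2.01 and 1.63). The median of the mean folds was 1.78 in the OGT list and 1.68 in the Polycomb list, beside 1.73 over all genes called.

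2 small lists were chosen because strong sites were already known at one of their members, so their leading genes are no independent finding. Genes of cap binding and 3-prime end processing had a shared peak at 11 of 17 (64.7%): Cpsf1 and Ncbp2 lead it, and Wdr33 follows with 1.56 and 1.98. Genes of the proteoglycan linker and heparan sulfate synthesis had 7 of 12 (58.3%): B4galt7 leads, followed by the xylosyltransferase genes Xylt2 (1.91 and 1.84) and Xylt1 (1.996 and 1.60). Immediate early genes had 8 of 15 (53.3%), highest at Npas4 (2.005 and 2.05), Arc (2.13 and 1.72) and Fosl2 (1.83 and 1.76).

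Replication-dependent histone genes had the highest share of any list, with 57 of 63 (90.5%), and a repeat 1 peak lay at 62 and a repeat 2 peak at 61 of them. These short genes lie in clusters, 53 of the 63 on chromosome 13 and 10 on chromosome 3, and the 57 genes rest on 39 separate shared peaks. H2ac11 and H4c9 share the highest (2.32 and 2.69), followed by H4c12 (1.79 and 2.99). Ribosomal protein genes had 39 of 79 (49.4%), highest at Rpl9 (2.89 and 2.43), Rps18 (2.68 and 2.39) and Rpl18 (2.36 and 2.23). Hox genes had 20 of 39 (51.3%), highest at Hoxc9 (1.85 and 1.99), Hoxc10 (1.79 and 2.02) and Hoxd8 (1.89 and 1.84). At Hoxc9, which has no listed start, the overlapping repeat 2 peak did not itself come within 1 kb of either gene end.

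Chemosensory receptor genes were at the other end. Of 1100 olfactory receptor genes, 43 (3.91%) had a shared peak, although 28.6% had a repeat 1 peak and 19.7% a repeat 2 peak. The highest were Olfr965 (1.62 and 2.72), Olfr1049 (1.97 and 2.03) and Olfr765 (1.85 and 2.005). Of 352 vomeronasal receptor genes, 17 (4.83%) had one, highest at Vmn1r2 (1.94 and 2.20), Vmn2r4 (1.96 and 1.90) and Vmn1r32 (1.70 and 2.05).

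Cell type marker genes were described in the same way, although a peak at a marker is no measure of its expression and so cannot check the cell type named in the labels. Neural progenitor markers had a shared peak at 6 of 20 (30.0%), highest at Sox9 (2.21 and 2.17), Msi1 (2.02 and 1.89) and Pax6 (1.75 and 2.11). Sox9 and Msi1 have no listed start, and the peaks given for them lay near the gene end of higher coordinate. Sox2, Vim and Fabp7 were among the 14 without a shared peak. Neuron markers had 7 of 16 (43.8%), with Gad1 (1.57 and 2.09), Syt1 (2.08 and 1.54) and Snap25 (1.81 and 1.78) highest. At Snap25, which has no listed start, the overlapping repeat 2 peak did not itself come within 1 kb of either gene end. Astrocyte markers had 4 of 8, with Slc4a4 (1.64 and 2.02), Gfap (1.69 and 1.61) and Slc1a2 (1.63 and 1.60). Microglia markers had 5 of 10, with Tmem119 (2.01 and 1.75), Csf1r (1.86 and 1.66) and Aif1 (1.69 and 1.67). Endothelial and mural markers had 4 of 10, with Tek (1.71 and 2.03), Cldn5 (1.60 and 1.76) and Cdh5 (1.70 and 1.63). Oligodendrocyte lineage markers had 2 of 9, Sox10 (1.84 and 1.63) and Olig1 (1.77 and 1.62). These lists are short, and counts of this size are not read against the 40.3% of all genes.

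The study's title names the miR-9 locus. Shared peaks lay within 5 kb of all 3 precursors, at 3643 bp from Mir9-1 (folds 1.75 and 1.43), 2074 bp from Mir9-3 (1.77 and 1.89) and 2826 and 4593 bp from Mir9-2 (1.64 and 1.61, 1.61 and 1.76). Such a peak was common, since 754 of 1136 microRNA genes (66.4%) had a shared peak within 5 kb. For the peaks near Mir9-1 and Mir9-2 the deposited −log10 q was 0 in both repeats. Near Mir9-3 it was 0.008 in repeat 1 and 0 in repeat 2, so by q none of these is a called site.

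Shared peaks overlapped the other profiled proteins more often than peaks of 1 repeat only. Panx2 belongs to the pannexin channel family, and Polr1c is part of RNA polymerases I and III. A Panx2 repeat 2 peak was met by 47.6% of shared and 32.3% of unshared peaks of Mgea5 repeat 1, and by 43.3% and 26.9% in Mgea5 repeat 2. The difference of 15.3 and 16.4 percentage points (mean 15.8 ± 0.802, SD, n = 2) was 8.65 and 12.0 within width classes. Panx2 repeat 1 was met by 11.5% and 8.38% of Mgea5 repeat 1 peaks, and Polr1c repeat 2 by 4.94% and 2.12%. At a −log10 p of at least 2, 71.6% of the 842 shared Mgea5 peaks met a Panx2 repeat 2 peak and 24.8% a Polr1c repeat 2 peak. Peak names place both Mgea5 lists and the second lists of Panx2 and Polr1c in one calling directory and the first lists of Panx2 and Polr1c in another. Which input served as control is not given, so sites of a second protein and positions common to these libraries cannot be told apart.

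Along the genome, chromosome 3 stood apart in both repeats. On it 45.6% of repeat 1 and 45.1% of repeat 2 peaks were shared. On the other chromosomes these shares ran from 32.0% (chromosome 19) to 37.2% (chromosome 15), and from 28.5% (chromosome 19) to 39.9% (chromosome 2). The part of chromosome 3 from 50 Mb on held 309 repeat 1 and 327 repeat 2 peaks per Mb, and 49.0% of repeat 1 peaks there were shared. Before 50 Mb it held 189 and 191 per Mb, with 32.5% shared. The 17 chromosomes other than 3 and 14 held 223 and 217 per Mb, with 34.1% shared. Panx2 repeat 2 peaks were also denser beyond 50 Mb of chromosome 3, with 267 per Mb against 199 on the 17 chromosomes, and so were Panx2 repeat 1 peaks, with 79.9 against 60.0.

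**Figure D5:**
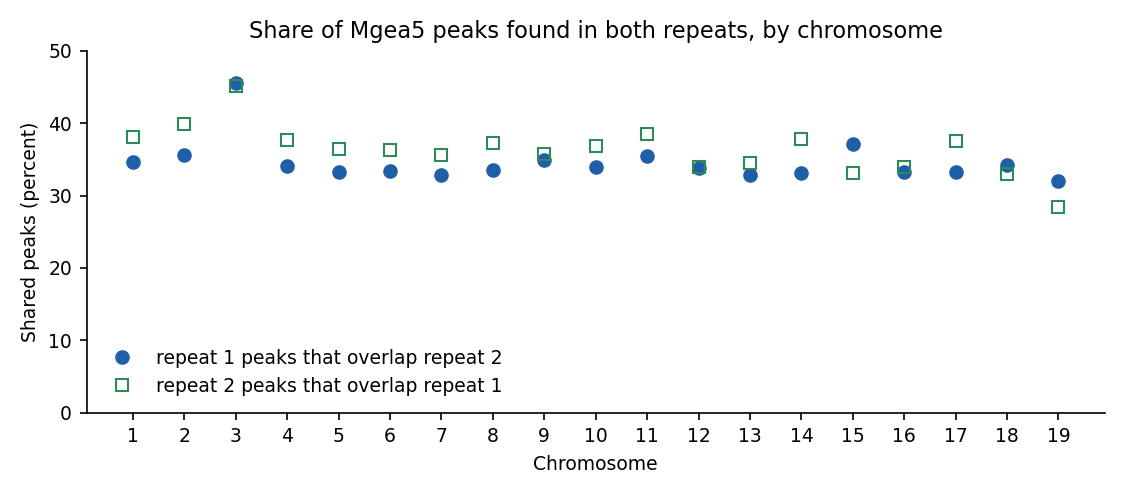
Percent of Mgea5 peaks found in both repeats (vertical) for each of the 19 chromosomes (horizontal); filled circles are repeat 1 peaks that overlap repeat 2, open squares repeat 2 peaks that overlap repeat 1. Chromosome 3 lies at 45.6% and 45.1%, and the others between 28.5% and 39.9%.

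Chromosome 14 from 45 Mb on was sparse, with 36.7 and 22.4 peaks per Mb, and only 340 peaks (11.6% of repeat 1) were shared there, among them the peak at Atg14. Before 45 Mb chromosome 14 held 243 peaks per Mb in both repeats, with 39.3% of repeat 1 peaks shared. The other lists were sparse in the same stretch: Panx2 repeat 1 had 4.92 peaks per Mb from 45 Mb on and 90.7 before it, Panx2 repeat 2 had 43.5 and 208, and Polr1c repeat 2 had 1.54 and 16.6. Over 238 bins of 10 Mb, the share of repeat 1 peaks found in both repeats had a Spearman's rho of 0.80 with the number of repeat 1 peaks and 0.40 with the number of protein-coding genes. Bins share libraries, so these are descriptions. Where one list was dense the other was too (rho 0.93), and dense bins gave more overlap.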

How the data were processed

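ChIP-seq peak lists of Mgea5 (2 repeats), Panx2 and Polr1c were analysed; the input libraries were not used here. Per the submitters' processing notes, Trim Galore, Bowtie2 2.3.5 and MACS3 3.0.0a5 were used on mm10; of the control, the cut-offs and the read depth nothing is given in the sources used here. The authors deposited for each peak a fold enrichment (a ratio), a −log10 p and a −log10 q, which were used only within a list. Widths are end minus start as deposited (counted from 0); printed starts are counted from 1, so a width is end minus printed start plus 1. Peaks on chromosomes 1 to 19 were compared by overlap of 1 bp or more.

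Protein-coding starts came from RefSeq GRCm38.p6 promoter entries, and both gene ends were used where none was listed. Exon annotation was not used here. A gene was called when a peak came within 1000 bp. For a shared peak its repeat 1 extent was used. Where a shared peak had several partners, the one of highest fold was taken. Named are the 12 genes of highest mean fold at the start, the 8 widest peaks, the 3 highest genes of each list, all O-GlcNAc genes except 1 that is not reported here, and the 3 highest peaks with no gene within 10 kb; Sox2, Vim and Fabp7 were named after their values were seen. Members and lists were chosen with earlier results of these data known. No test was made, since the 2 libraries form 1 group and peaks are not replicates. Interval code was tested on simulated data. Python 3.11.15, numpy 2.4.6, pandas 2.3.3, scipy 1.17.1 and matplotlib 3.10.9 were used. Alternatives were other overlaps, thresholds, list lengths, windows and chromosomes.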

Additional observations from a re-analysis of the deposited data

How the results depend on the processing

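Under a mutual overlap of 50%, 7.81% of repeat 1 peaks were shared, and the differences between shared and unshared peaks were 143 bp in median width, 0.753 percentage points at starts and 10.2 percentage points in overlap with Panx2 repeat 2, with 2020 genes called. With a −log10 p of at least 2 in both lists, the same values were 3.95%, 490.5 bp, 41.2 points, 30.2 points and 536 genes, and the difference in median fold turned to −0.0316. With a −log10 q of at least 2 they were 61.3%, 546 bp, 4.80 points, 9.91 points, 52 genes and a fold difference of 0.0385. With the 100000 peaks of highest fold in each list they were 7.70%, 294 bp, 3.71 points, 13.6 points and 696 genes, and the fold difference turned to −0.0031, beside 0.0183 with all peaks. With repeat 2 peaks as members they were 37.1%, 154 bp, 2.35 points, 16.4 points and a fold difference of 0.0022. Fewer peaks enter under the stricter thresholds, which bounds their gene counts; beyond that the cause was not tested. Little changed without chromosome 14. With windows of 500 and 2500 bp the start difference was 1.32 and 1.47 points. The genes called there numbered 6919 and 11139, beside 8337 at 1000 bp. Without chromosome 3 and with listed starts only, alternatives chosen after seeing the data, the start difference was 1.58 and 1.01 points. The genes called in these 2 alternatives numbered 7841 and 6202, the latter of 16457 genes with a listed start. In all of these settings, from chromosome 14 on, the values moved by less than the SD of the 2 directions of the overlap or, for gene counts, by less than 1.5 times. Within width classes, also chosen after seeing the data, the start difference was 0.538 points (2.17 in repeat 2) and the Panx2 difference 8.65 points (12.0 in repeat 2). Leaving out a repeat, the genes with a peak of the other numbered from 12095 to 15689; every other result needs both repeats. No paired analysis was possible because the shared peaks come from no test between groups. Read depth is unknown, so no interval could be given.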

Other observations

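On the sex chromosomes, which were left out of the shared set, fewer peaks coincided. On the X chromosome 893 of 6043 repeat 1 peaks (14.8%) overlapped one of the 3669 repeat 2 peaks, and the shared ones had a median width of 632 bp. On the Y chromosome 83 of 389 (21.3%) did, with a median width of 496 bp.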
